A study of Mus musculus with 6 samples.

Results

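Hyaluronan is a long, unsulfated sugar chain of the extracellular matrix, made at the cell surface and cleared by enzymes inside and outside the cell. Its synthesis, turnover and binding were followed here through 8 genes taken by name from the 54752 genes of the count table. They were the synthases Has1, Has2 and Has3, the hyaluronidases Hyal1 and Hyal2, the hyaluronan-degrading factor Cemip, the receptor Cd44 and the binding protein Tnfaip6. All 8 were found in the table and all 8 passed the filter of at least 10 counts in total over the libraries.

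Synthases join 2 sugar nucleotides into the chain and push it out through the plasma membrane. Hyal2 and Cemip act on hyaluronan at or near the cell surface, Hyal1 digests it in lysosomes, Cd44 binds and internalizes it, and the Tnfaip6 protein, also called TSG-6, links other proteins to it. In fibroblasts this system is known for its part in wound repair and fibrosis, and TGF-β1 is a cytokine that drives matrix production and contractile gene expression.

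RNA was sequenced from NIH/3T3 cells, an immortal line of mouse embryonic fibroblasts, in 3 groups of 2 libraries after 72 h of culture. The vehicle group received PBS. Another group received TGF-β1 at 1 ng/ml together with DMSO, and the last group received TGF-β1 at 1 ng/ml together with 5 μM BI6727, an inhibitor of the mitotic kinase PLK1 that is also known as volasertib. The labels name no solvent for BI6727, so whether that group also received DMSO is not known. No group received DMSO or BI6727 without TGF-β1, so DMSO and TGF-β1 cannot be told apart in comparisons with vehicle. The labels number the replicates but do not say that they came from separate cultures, so p-values measure the spread between these libraries, which may be technical.

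Libraries held 18362378 to 24452153 counts on genes, so 3 counts, the limit that a count of 0 allows, came to 0.123 to 0.163 CPM, a unit of counts relative to the library's total. The 6 fibroblast markers summed to 8190 and 7883 CPM in vehicle, 10148 and 7191 CPM with DMSO, and 7981 and 8102 CPM with BI6727. Of these markers, 2 fell with DMSO and 3 with BI6727 against vehicle at an adjusted p below 0.05. Thy1 was among them, at 188 and 165 CPM in vehicle, 95.6 and 94.3 CPM with DMSO and 89.8 and 88.3 CPM with BI6727. The part of these shifts in the results was not tested. The epithelial markers summed to at most 0.316 CPM and the leukocyte markers to at most 0.439 CPM, while Krt5, Cd3e and Adgre1 were at 0 throughout. The endothelial markers summed to 0.310 and 0.904 CPM in vehicle, 2.69 to 3.80 CPM with DMSO and 1.96 to 2.62 CPM with BI6727, and their part in the results was not tested. The TGF-β response genes Acta2 and Ccn2 rose with TGF-β1 and DMSO, by 2.31 and 3.66 on the log2 scale. The DMSO libraries stood further apart from each other than the other pairs. The difference between replicates, as a chi-square per degree of freedom, was 52.7 with DMSO, 5.90 in vehicle and 5.09 with BI6727. Mitochondrial genes held 3.41% of counts in DMSO replicate 1 and 5.58% in replicate 2, against 4.48% to 4.77% in the other groups. The DMSO libraries also differed on gene length. Genes with over 10 kb of exons had a median log2 change from vehicle of 0.0050 in replicate 1 and -0.48 in replicate 2, against -0.11 and -0.051 in the BI6727 libraries. Genes with up to 2 kb of exons had a median change of -0.015 and 0.35 in DMSO replicates 1 and 2. In the BI6727 libraries it was 0.15 and 0.088. The length trend touches Cemip, which has 12232 bases of exons, and Tnfaip6, which has 1710, and is given with their values.

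All values below are CPM after scaling of the libraries by edgeR's TMM method, with vehicle replicates 1 and 2 first, then those with DMSO and those with BI6727. A gene was called when the Benjamini-Hochberg adjusted p of edgeR's quasi-likelihood test over 17936 genes was below 0.01 and the fold change was above 2. A broader rule, an adjusted p below 0.05 with no fold minimum, is given beside it, and "rose" and "fell" are used for genes past the broader rule. All adjusted p-values in the text come from this edgeR test unless another tool is named. Errors of means are SD over 2 libraries.

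Stretches before the start sites of Cemip, Hyal1, Cd44 and Tnfaip6 are shown, the first 2 because they gave the calls against vehicle and the others as the receptor and the binding protein that rose. They are RefSeq sequences of build GRCm38.p6, written 5′ to 3′ on the strand of the gene: chr7:84086506-84086755 on the minus strand for Cemip, chr9:107576700-107576926 on the plus strand for Hyal1, chr2:102901666-102901915 on the minus strand for Cd44 and chr2:52037863-52038008 on the plus strand for Tnfaip6. Those of Hyal1 and Tnfaip6 end where the gene begins in the count table. Capitals mark matches on either strand to CAGAC, the core of the SMAD element, TGANTCA, the AP-1 element, GGAATG, the TEAD element, or TATAAA, the TATA box.
Cemip: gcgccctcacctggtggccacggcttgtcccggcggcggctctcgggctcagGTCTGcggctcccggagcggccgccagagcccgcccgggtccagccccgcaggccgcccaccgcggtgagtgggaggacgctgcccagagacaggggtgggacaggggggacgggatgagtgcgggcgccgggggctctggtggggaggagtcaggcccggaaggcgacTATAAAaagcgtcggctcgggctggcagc
Hyal1: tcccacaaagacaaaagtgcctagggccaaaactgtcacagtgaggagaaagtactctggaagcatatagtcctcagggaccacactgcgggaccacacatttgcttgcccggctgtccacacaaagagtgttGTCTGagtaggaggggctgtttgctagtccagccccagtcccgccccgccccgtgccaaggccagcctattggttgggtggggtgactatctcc
Cd44: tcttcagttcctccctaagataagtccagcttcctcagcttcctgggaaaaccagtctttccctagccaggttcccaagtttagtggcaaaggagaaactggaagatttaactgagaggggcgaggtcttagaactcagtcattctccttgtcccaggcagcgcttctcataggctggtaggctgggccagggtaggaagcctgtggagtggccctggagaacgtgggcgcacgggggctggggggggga
Tnfaip6: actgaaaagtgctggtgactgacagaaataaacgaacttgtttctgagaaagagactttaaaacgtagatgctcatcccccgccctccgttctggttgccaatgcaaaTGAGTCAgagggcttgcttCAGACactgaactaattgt

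Within the 250 bases before the RefSeq start, CAGAC was found in 42.2% of all 32851 windows, TGANTCA in 6.75%, GGAATG in 12.6% and TATAAA in 12.4%. The Cemip window held CAGAC, read as GTCTG on this strand, at position -198 and TATAAA at -29, counted back from the RefSeq start. That of Hyal1 held CAGAC, again as GTCTG, at -117, and that of Tnfaip6 held TGAGTCA at -142, CAGAC at -123 and GGAATG, as CATTCC, at -8, the last lying past the printed stretch. None of the 4 motifs was found in the Cd44 window, and none of these letters is by itself a bound site. GC made up 75.2% of the Cemip window, 56.4% of that of Cd44 and 44.4% of that of Tnfaip6, against a median of 52.4% over all windows.

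The first question was which genes of the system differed between vehicle and TGF-β1 with DMSO. Cemip fell 2.63-fold, while the receptor Cd44, the hyaluronidases Hyal1 and Hyal2 and the binding protein Tnfaip6 rose by 1.43-fold to 1.99-fold. Has2, the main synthase in these cells, was at a higher mean but did not pass the test, and Has1 and Has3 were near the limit of detection. Of the 8 genes, 0 were called higher and 1, Cemip, was called lower, where 5.02% of all genes tested were called (2.30% or 413 genes higher and 2.72% or 488 genes lower). Under the broader rule 4 rose and 1 fell, against 16.1% of all genes (7.64% higher and 8.41% lower). Libraries of the groups did not overlap for 6 of the 8, 5 higher and 1 lower, against 56.4% of all genes (27.3% higher and 29.1% lower). The median log2 fold change of the 8 was 0.52, beside -0.00088 over all genes. This median and those of the 8 below include the fitted values of Has1 and Has3, which rest on few counts.

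**Figure D1:**
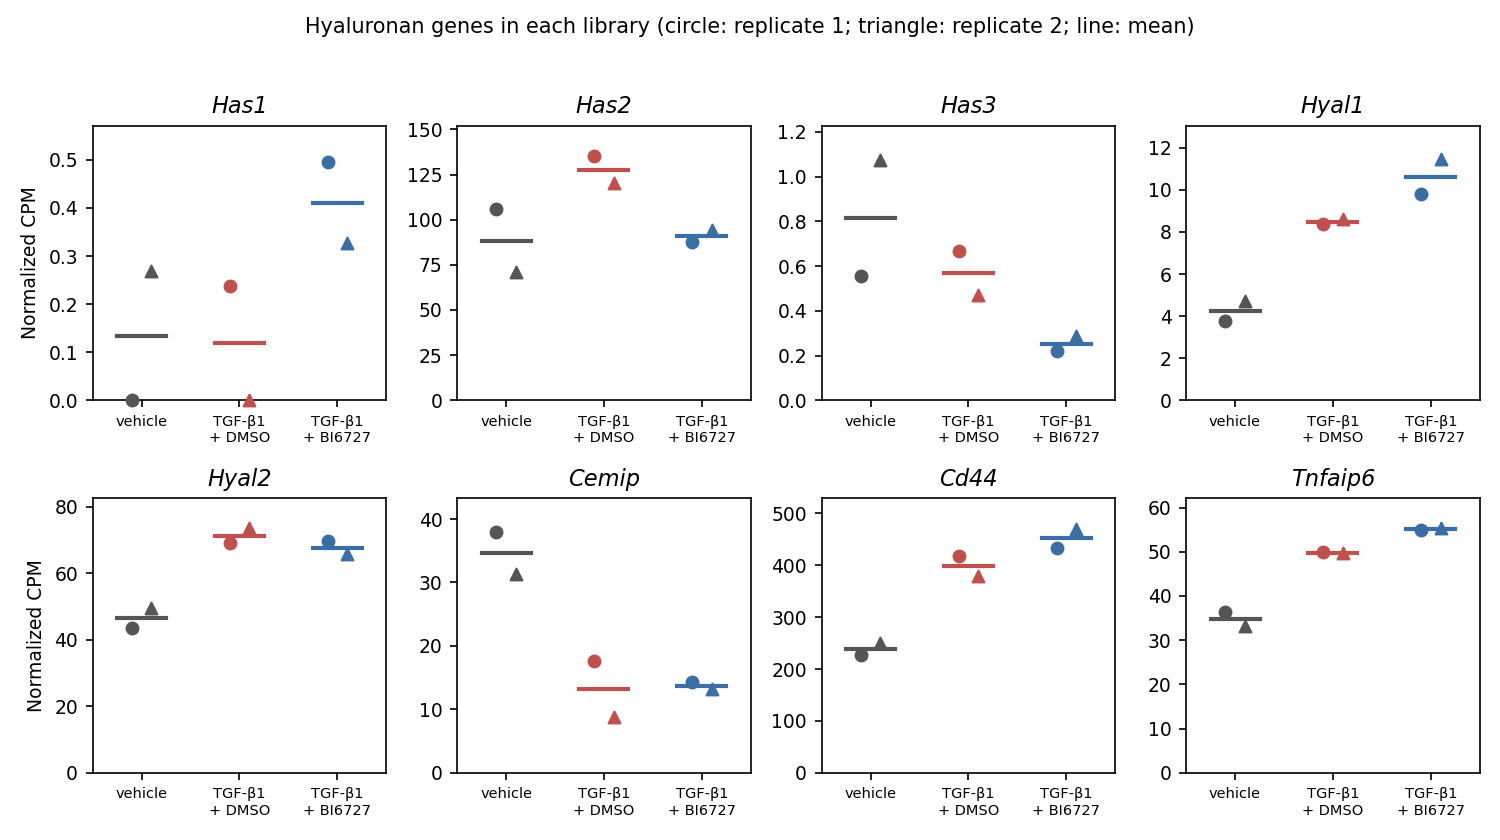
Normalized CPM of the 8 hyaluronan genes in each library, one panel per gene with its own axis starting at 0, circles and triangles for replicates 1 and 2 and lines for group means. Both vehicle libraries lie above all 4 TGF-β1 libraries for Cemip and below all 4 for Hyal1, Hyal2, Cd44 and Tnfaip6.

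Among the synthases, Has2 (chr15:56665627-56694539, minus strand, mm10) makes the long chains of most mesenchymal cells. It stood at 106 and 70.8 CPM in vehicle, 135 and 120 CPM with DMSO, and 87.4 and 94.2 CPM with BI6727. The DMSO libraries were the highest and did not overlap with vehicle, but the vehicle pair was itself widely spread, at 88.3 ± 24.8 against 128 ± 10.4. The log2 fold change was 0.53 (SE 0.17, 95% confidence interval 0.14 to 0.92, adjusted p = 0.0674), which did not pass the broader rule. The adjusted p was 0.0226 in DESeq2 and 0.0204 in edgeR with offsets for gene length fitted in every library. It was 0.0836 under the study's filter, 0.0565 with a replicate block and 0.135 with only these groups fitted. Over 10 alternatives in edgeR, DESeq2 or voom with no single library left out, the result fell on both sides of the threshold (adjusted p of 0.00152 to 0.135). It depended on the vehicle libraries, at 0.85 without replicate 1 (adjusted p = 0.0353) and 0.27 without replicate 2 (0.396), and without either BI6727 library the adjusted p was 0.151 or 0.154. An antisense gene, Has2os, covers 4.30% of the exonic length of Has2, and its own difference, 0.52 on the log2 scale, had an adjusted p of 0.464. The strand setting of the counting is not known, so reads from the shared stretch cannot be told apart.

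Has1 (chr17:17843323-17855205, minus strand), a synthase often induced by inflammatory signals, was read 0 and 6 times in vehicle, 5 and 0 times with DMSO, and 9 and 8 times with BI6727. The groups with vehicle and DMSO overlapped, a library in each was at 0, and no fold is given. Has3 (chr8:106870242-106884566, plus strand), which makes shorter chains, had 11 and 24 counts in vehicle, 14 and 10 with DMSO, and 4 and 7 with BI6727. Its DMSO libraries overlapped with vehicle (log2 fold change -0.52, adjusted p = 0.626). Chtf8, on the other strand, covers 5.52% of the exonic length of Has3 and stood at 132 to 156 CPM over the libraries. With the strand setting not known, reads from that shared stretch cannot be told apart either. Has2 made up 98.7% to 99.7% of the summed length-scaled level of the 3 synthases in each library.

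Of the degrading genes, Cemip (chr7:83932857-84086502, minus strand), needed for the breakdown of hyaluronan by skin fibroblasts, was the one that fell. It stood at 37.9 and 31.4 CPM in vehicle, 17.6 and 8.78 CPM with DMSO, and 14.3 and 13.2 CPM with BI6727. All 4 libraries with TGF-β1 were below both vehicle libraries. The level with DMSO was 2.63-fold lower than in vehicle (13.2 ± 6.21 against 34.7 ± 4.61 CPM), a log2 fold change of -1.39 (SE 0.27, 95% confidence interval -2.0 to -0.79, adjusted p = 0.00681). The DMSO replicates differed by 0.997 on the log2 scale, more than 98.7% of 9518 genes of higher counts did between these libraries. Replicate 2, in which long genes were low, was at -1.97 from vehicle and replicate 1 at -0.97. With these length offsets, Cemip was at -1.23 (adjusted p = 0.000217). Without DMSO replicate 2 it was at -0.96 (adjusted p = 7.61e-05), under the fold minimum, and without DMSO replicate 1 at -1.98. The call also ended without vehicle replicate 1 (adjusted p = 0.111), vehicle replicate 2 (0.0514) or either BI6727 library (0.0342 for each), and under the study's filter of low counts (0.0150) and with only these groups fitted (0.0304).

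Hyal1 (chr9:107576927-107581710, plus strand), the lysosomal hyaluronidase, moved the other way. It stood at 3.78 and 4.74 CPM in vehicle, 8.38 and 8.59 CPM with DMSO, and 9.78 and 11.5 CPM with BI6727. Every library with TGF-β1 was above both vehicle libraries. The rise with DMSO was 1.99-fold (log2 fold change 0.99, SE 0.20, adjusted p = 0.00952), just short of the fold minimum for a call, and DESeq2 put it just past (1.01, adjusted p = 0.00394). Without vehicle replicate 1 its adjusted p was 0.124. The value for Hyal1 is uncertain, because 51.9% of its exonic length is shared with Hyal3 and Naa80 on the same strand. Naa80, an actin-modifying enzyme gene, stood at 9.82 and 8.50 CPM in vehicle and 14.8 and 17.1 CPM with DMSO (log2 fold change 0.80, adjusted p = 0.0143). With BI6727 it stood at 12.2 and 14.7 CPM (log2 fold change 0.56 against vehicle, adjusted p = 0.0631).

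Hyal2 (chr9:107567945-107572779, plus strand), a hyaluronidase anchored at the cell surface, lies next to Hyal1 in the genome. It stood at 43.6 and 49.6 CPM in vehicle, 68.9 and 73.6 CPM with DMSO, and 69.6 and 65.9 CPM with BI6727. The 4 libraries with TGF-β1 again lay above vehicle, and the rise with DMSO was 1.53-fold (71.3 ± 3.29 against 46.6 ± 4.21 CPM, log2 fold change 0.61, SE 0.12, adjusted p = 0.00776). Without vehicle replicate 1 or 2 its adjusted p was 0.134 or 0.0515. Within the summed length-scaled level of Cemip, Hyal1 and Hyal2, Cemip accounted for 17.9% and 13.6% in vehicle, 5.84% and 2.83% with DMSO, and 4.71% and 4.46% with BI6727. Counts of Has2 per count of Cemip were 2.79 and 2.25 in vehicle, 7.69 and 13.7 with DMSO, and 6.09 and 7.16 with BI6727. These ratios describe single libraries and were not tested.

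Cd44 (chr2:102811141-102901665, minus strand), the main hyaluronan receptor of fibroblasts and leukocytes, had the highest length-scaled level of the 8 genes in every group. It stood at 226 and 250 CPM in vehicle, 418 and 379 CPM with DMSO, and 434 and 469 CPM with BI6727. The groups with TGF-β1 did not overlap with vehicle, and the rise with DMSO was 1.68-fold (399 ± 27.2 against 238 ± 16.5 CPM, log2 fold change 0.74, SE 0.11, adjusted p = 0.00184). Without vehicle replicate 1 its adjusted p was 0.0685. Cd44 was read 2.14 and 3.53 times per Has2 count in vehicle, 3.09 and 3.15 times with DMSO, and 4.97 and 4.98 times with BI6727.

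Tnfaip6 (chr2:52038009-52056686, plus strand) encodes the secreted protein that transfers the heavy chains of inter-α-inhibitor to hyaluronan. It stood at 36.4 and 33.2 CPM in vehicle, 49.9 and 49.6 CPM with DMSO, and 54.8 and 55.4 CPM with BI6727. Replicates were close together in every group and vehicle was lowest. The rise with DMSO was 1.43-fold (49.8 ± 0.235 against 34.8 ± 2.21 CPM, log2 fold change 0.52, SE 0.12, adjusted p = 0.0165). Tnfaip6 has 1710 bases of exons, and with offsets for gene length the rise was 0.40 on the log2 scale (adjusted p = 0.0290). It was past the broader rule only, and without either vehicle library or either BI6727 library its adjusted p was between 0.0639 and 0.174.

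**Figure D2:**
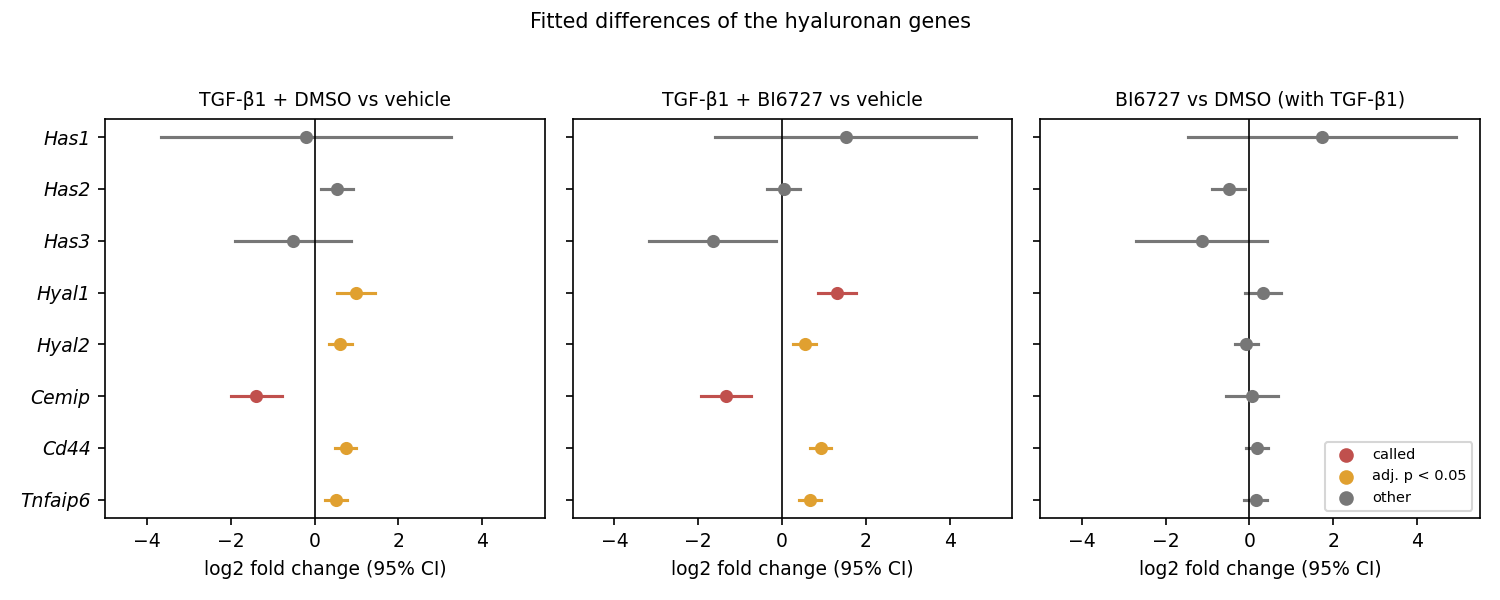
Log2 fold changes of the hyaluronan genes in the 3 comparisons, points for the edgeR estimates and bars for their 95% confidence intervals. Intervals for Cemip lie below 0 in both comparisons with vehicle, and those for BI6727 against DMSO include 0 except that of Has2.

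The next question was whether the level of these genes differed between TGF-β1 with BI6727 and TGF-β1 with DMSO. For all 8 the adjusted p was 0.719 or more, so 0 of 8 were called, where 0.0112% of all genes were called (2, both lower). DESeq2 and voom also called 0 of the 8, and at an unadjusted p below 0.05 each of the 3 tools found 1, Has2, where such a p was found for 6.57% of all genes in edgeR, 4.32% in DESeq2 and 5.16% in voom. Libraries did not overlap for 6 of the 8, 4 higher and 2 lower with BI6727, against 34.6% of all genes (17.2% higher and 17.4% lower). Has1 was among the 4 and Has3 among the 2, both near the limit of detection. The median log2 fold change of the 8 was 0.10, beside -0.0033 over all genes. A p that misses the threshold does not show that the groups were alike, and the intervals below give the differences that the data allow.

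Has2 was lower with BI6727 in both libraries than in either DMSO library, at 90.8 ± 4.83 against 128 ± 10.4 CPM. The log2 fold change was -0.49 (95% confidence interval -0.88 to -0.10, unadjusted p = 0.0187, adjusted p = 0.719). With 1 library left out at a time it was -0.59 to -0.41. Under the other alternatives it was -0.50 to -0.48, with an adjusted p of 0.0566 or more in edgeR, DESeq2 and voom. Against vehicle, the level with BI6727 differed by 0.04 (95% confidence interval -0.35 to 0.43). Has3 had fewer counts with BI6727 in both libraries (log2 fold change -1.14, interval -2.70 to 0.43).

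For the genes that had risen with DMSO, the log2 differences between BI6727 and DMSO were 0.33 for Hyal1 (interval -0.11 to 0.76), -0.07 for Hyal2 (-0.34 to 0.20), 0.18 for Cd44 (-0.07 to 0.43) and 0.15 for Tnfaip6 (-0.12 to 0.41). Both BI6727 libraries exceeded both DMSO libraries for Hyal1, Cd44 and Tnfaip6, and the groups overlapped for Hyal2. Cemip differed by 0.06 (interval -0.55 to 0.67), with both BI6727 libraries between the 2 DMSO libraries. The value turned on which DMSO library was kept, at 0.64 without replicate 1 (adjusted p = 0.0209) and -0.38 without replicate 2 (0.241).

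The last question was how TGF-β1 with BI6727 compared with vehicle, a comparison that shares its vehicle libraries with the first. Hyal1 was called higher and Cemip was called lower, 2 of 8, where 5.18% of all genes were called (2.05% or 367 genes higher and 3.13% or 562 genes lower). Under the broader rule 4 rose and 1 fell, against 17.1% of all genes (7.69% higher and 9.43% lower). Libraries did not overlap for 7 of the 8, 5 higher and 2 lower, against 65.7% of all genes (33.3% higher and 32.4% lower). Has1 was again among those higher and Has3 among those lower, both near the limit of detection. The median log2 fold change of the 8 was 0.60, beside 0.013 over all genes.

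Hyal1 was 2.49-fold higher with BI6727 than in vehicle (10.6 ± 1.20 against 4.26 ± 0.682 CPM, log2 fold change 1.32, SE 0.20, adjusted p = 0.00184). That value is uncertain too, because 51.9% of the exonic length of Hyal1 is shared with other genes. Cemip was 2.52-fold lower (13.7 ± 0.840 against 34.7 ± 4.61 CPM, adjusted p = 0.00805). Cd44 rose 1.90-fold to 452 ± 24.8 CPM (log2 fold change 0.93, adjusted p = 0.000477) and Tnfaip6 1.58-fold to 55.1 ± 0.393 CPM (0.66, adjusted p = 0.00445). Hyal2 rose by 0.54 on the log2 scale (adjusted p = 0.0140). Has3 was at -1.66 (interval -3.18 to -0.14) but did not pass either rule (adjusted p = 0.132), and Has1 had an adjusted p of 0.520.
Without either vehicle library or either BI6727 library, the adjusted p ranged from 0.0187 to 0.0449 for Hyal1, from 0.0572 to 0.125 for Cemip, from 0.0703 to 0.179 for Hyal2 and from 0.0512 to 0.0831 for Tnfaip6, whereas Cd44 was at 0.0304 or below. The call of Cemip was also lost under the study's filter (adjusted p = 0.0156) and under edgeR's filterByExpr (0.0113).

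Scaled by exonic length, in CPM per kb, the genes could be set beside each other. In vehicle the order ran from Cd44 at 35.1 ± 2.44 through Has2 at 20.8 ± 5.86, Tnfaip6 at 20.3 ± 1.29 and Hyal2 at 14.1 ± 1.28 to Cemip at 2.83 ± 0.377 and Hyal1 at 1.13 ± 0.181, with Has3 and Has1 at 0.128 ± 0.0576 and 0.0297 ± 0.0420. Has2 and Tnfaip6, neighbours in this order, did not differ beyond their spread. With DMSO, Cd44 was at 58.8, Has2 at 30.1 ± 2.45 and Tnfaip6 at 29.1, and Hyal1 at 2.25 stood above Cemip at 1.08 ± 0.508. With BI6727, Tnfaip6 at 32.2 came before Has2 at 21.4 ± 1.14 and Hyal2 at 20.6 ± 0.797, the last pair again within their spread, and Hyal1 at 2.81 stood above Cemip at 1.12. The level of Hyal1 was divided by its full exonic length, of which 51.9% is shared with other genes, so its place beside Cemip is uncertain.

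**Figure D3:**
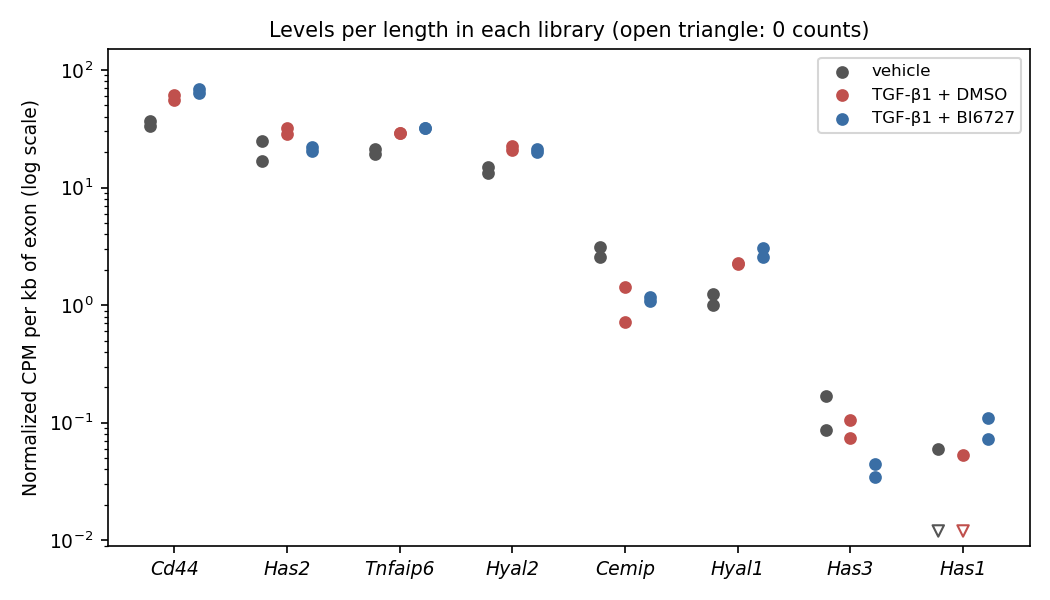
Length-scaled level of each gene in each group, in normalized CPM per kb of exons on a log axis, filled points for single libraries and open triangles for libraries with 0 counts. Cd44 is highest in every group, and Cemip lies above Hyal1 in vehicle and below it in the groups with TGF-β1, an order that rests on the full exonic length of Hyal1, 51.9% of it shared with other genes.

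The genes closest in pattern were sought among 9518 genes of higher counts, by the Euclidean distance over 6 libraries of log2 changes from the vehicle mean, as a description. Nearest to Cemip were Arid5b at a distance of 0.311, Slc38a4 at 0.335 and Vdr at 0.355. Nearest to Hyal1 were Arl4c at 0.151, Vps37b at 0.187 and Rgs16 at 0.260.

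A wider list of 45 genes for precursor supply, turnover, receptors, matrix partners and partners of Cd44 set these results in the rest of the system, and 31 of them could be tested. Between vehicle and TGF-β1 with DMSO, 0 were called higher and 3 were called lower, Ptx3, Tlr2 and Tlr4, where 2.30% and 2.72% of all genes were. Under the broader rule 3 rose and 6 fell, against 7.64% and 8.41% of all genes, and the median log2 fold change was 0.13, beside -0.00088 over all genes. With BI6727 against vehicle 2 were called higher, Gfpt2 and Msn, and 3 were called lower, again Ptx3, Tlr2 and Tlr4, against 2.05% and 3.13% of all genes. Between BI6727 and DMSO 0 of the 31 passed either rule, where 0.0112% of all genes passed each.

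Matrix partners gave the largest difference of the list. Ptx3, or pentraxin 3, which acts with TSG-6 to cross-link hyaluronan in the matrix around the egg, was at 185 and 134 CPM in vehicle, 9.81 and 8.78 CPM with DMSO, and 7.09 and 7.39 CPM with BI6727. The groups with TGF-β1 were far below vehicle, 17.2-fold with DMSO (log2 fold change -4.10, SE 0.18, adjusted p = 1.23e-06). Vcan, the hyaluronan-binding proteoglycan versican, was at 440 and 407 CPM in vehicle, 298 and 137 CPM with DMSO, and 243 and 254 CPM with BI6727. It fell with DMSO by 0.96 on the log2 scale (adjusted p = 0.0412), but it has 14462 bases of exons and the same low value in DMSO replicate 2 as Cemip. It was at -0.49 without that library, and its adjusted p was between 0.113 and 0.248 without either vehicle library or either BI6727 library. Among 7 partners tested, 3 passed the broader rule with DMSO against vehicle, where 16.1% of all genes did. Of the 3, Bcan, a brain proteoglycan of low count here, was the one that rose, and it was chosen after its values were seen. Its adjusted p was over 0.05 without any one library other than DMSO replicate 2.

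Of 7 receptors and binding proteins other than Cd44 that were tested, 4 fell under the broader rule, where 8.41% of all genes fell. The other 3 had positive log2 fold changes that did not pass it. Among these Stab1, a scavenger receptor for hyaluronan chosen after its values were seen, had 0 and 6 counts in vehicle, 12 and 18 with DMSO and 19 and 22 with BI6727 (adjusted p = 0.125 with DMSO). Tlr2, a Toll-like receptor reported to sense hyaluronan fragments, was at 66.2 and 48.0 CPM in vehicle and 17.4 and 13.7 CPM with DMSO (log2 fold change -1.88, adjusted p = 0.000148). Tlr4, of the same family, was at 101 and 98.8 CPM in vehicle and 56.2 and 42.6 CPM with DMSO (-1.01, adjusted p = 0.00166), under the fold minimum without DMSO replicate 2 (-0.81) and at an adjusted p of 0.0112 to 0.0424 without any one of the vehicle or BI6727 libraries. With BI6727 against vehicle its adjusted p was 0.0255 to 0.0487 without any one of the libraries compared. Hmmr, a receptor that also acts on the mitotic spindle, was at -0.46 (adjusted p = 0.0283), and Layn, the receptor layilin, chosen after its values were seen, at -0.63 (adjusted p = 0.00622). Without any one of the vehicle or BI6727 libraries the adjusted p of Hmmr was between 0.0779 and 0.230, and without either vehicle library that of Layn was 0.0736 or 0.0824.

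Precursor supply gave 1 gene of 8 past the broader rule with DMSO against vehicle, where 16.1% of all genes passed it. Gfpt2, which feeds the hexosamine pathway to one of the sugar nucleotides, was at 5.24 and 4.96 CPM in vehicle, 11 and 8.54 CPM with DMSO, and 12.5 and 17.2 CPM with BI6727. It rose by 0.94 on the log2 scale with DMSO (adjusted p = 0.0186, and 0.143 or 0.157 without either vehicle library) and by 1.54 with BI6727 against vehicle (adjusted p = 0.00121, and 0.0342 to 0.0350 without either vehicle library or BI6727 replicate 2). Ugdh, which makes the other sugar nucleotide, was at -0.29 (adjusted p = 0.0913), Ugp2 at 0.27 (0.121) and Nagk at -0.20 (0.310). Of the other turnover enzymes, 5 of 9 could be tested and 0 passed either rule with DMSO against vehicle. Gusb, the lysosomal β-glucuronidase, was at 0.34 (adjusted p = 0.0614) and Cemip2, a relative of Cemip in the membrane, at 0.35 (0.266). The hyaluronidase genes Hyal4, Hyal5, Hyal6 and Spam1 were at 0 counts in every library.

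Msn, or moesin, ties the tail of CD44 to actin. It was at 431 and 435 CPM in vehicle, 934 and 706 CPM with DMSO, and 1024 and 1050 CPM with BI6727, above vehicle in all 4 libraries with TGF-β1. The log2 fold change was 0.92 with DMSO (adjusted p = 0.00167, and 0.0589 without vehicle replicate 1) and 1.26 with BI6727 against vehicle (adjusted p = 0.000238, and 0.0128 to 0.0200 without any one of the libraries compared). The related Rdx and Ezr were at -0.32 (adjusted p = 0.0919) and 0.20 with DMSO, neither past a rule.

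**Figure D4:**
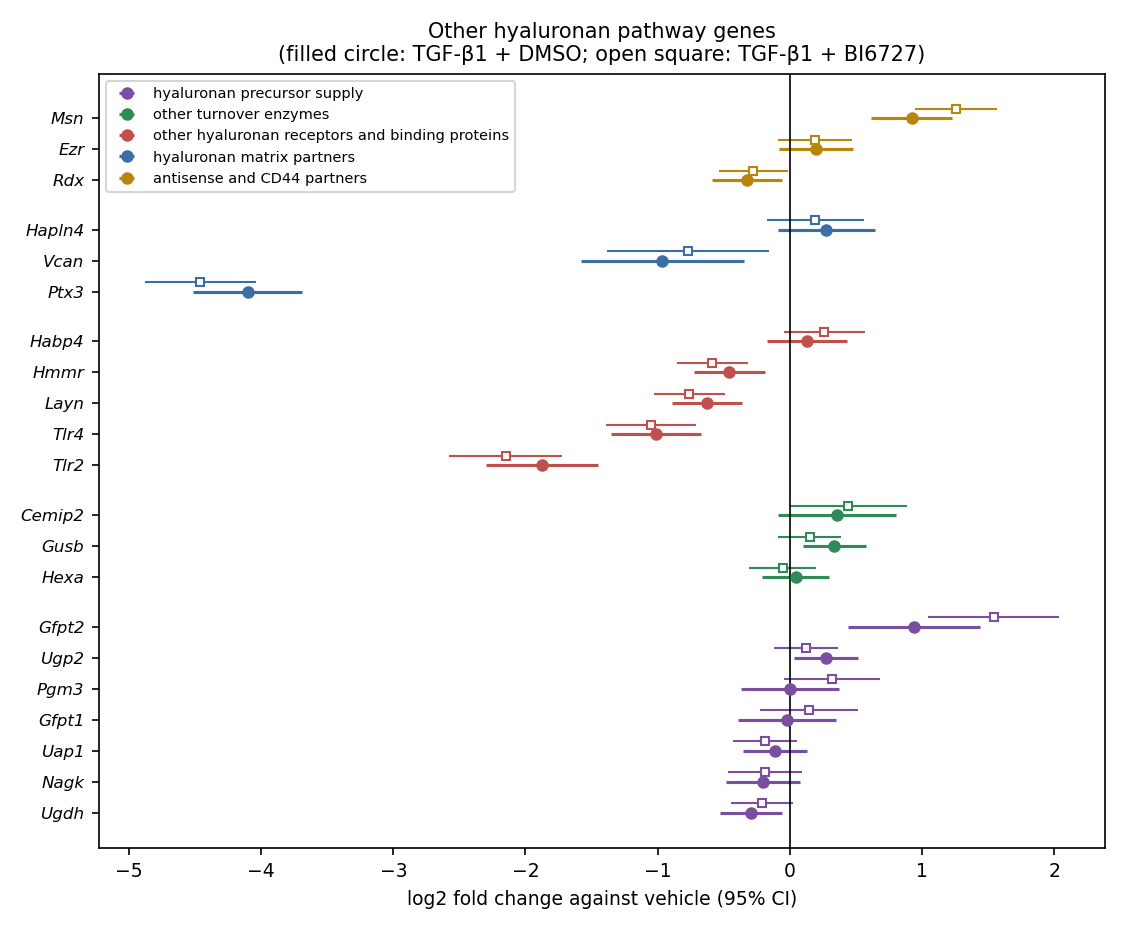
Log2 fold changes with 95% confidence intervals for the reported genes of the wider hyaluronan list with at least 50 counts in 2 libraries, coloured by subgroup, for TGF-β1 with DMSO (filled circles) and with BI6727 (open squares) against vehicle. Ptx3 lies furthest from 0, at -4.10 and -4.46.

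**Figure D5:**
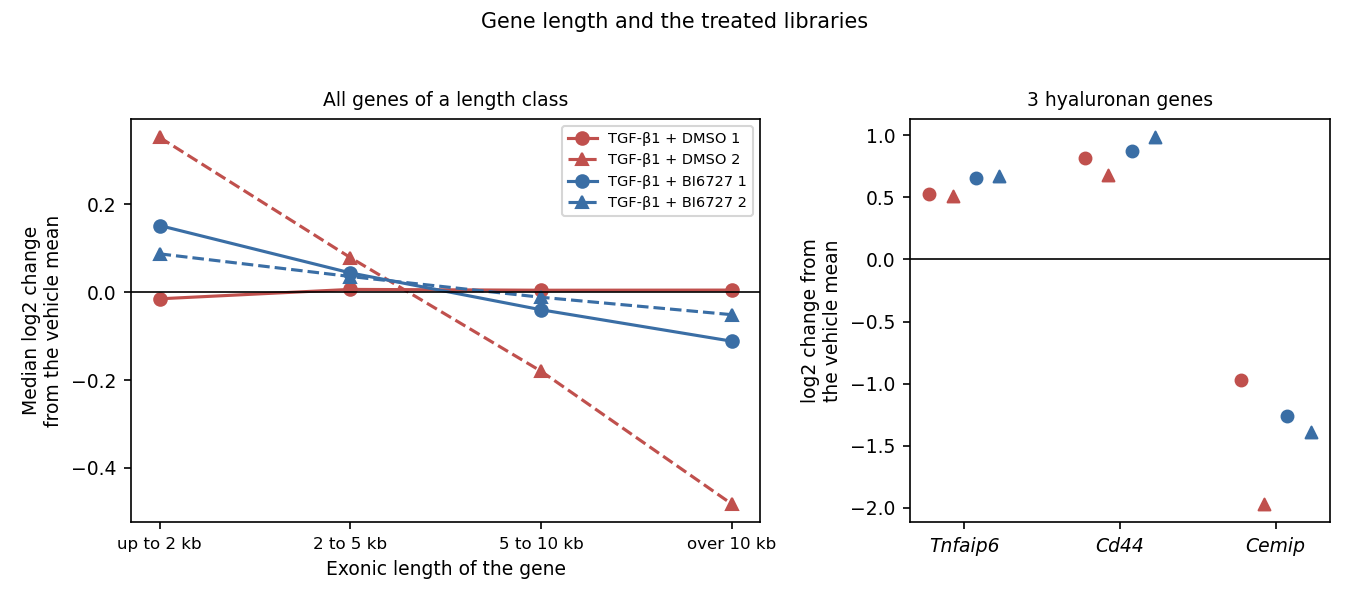
Median log2 change from the vehicle mean of genes in 4 classes of exonic length (left, one line per library with TGF-β1), and the same change for Tnfaip6, Cd44 and Cemip (right, one point per library). The line of DMSO replicate 2 ends at -0.48 for genes over 10 kb, and Cemip in that library is at -1.97.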

How the data were processed

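The deposited values are unnormalized counts: the authors aligned single-end reads to mm10 by Subjunc (Subread 1.6.4) and assigned them to Gencode genes by featureCounts. The strand setting is not given in the sources used here. Groups came from the sample labels.

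Genes with at least 10 counts in total entered a single model of all 6 libraries (R 4.3.3, edgeR 4.0.16), with TMM factors, the group as the only term, 3 residual degrees of freedom and a quasi-likelihood test of each contrast. The standard error was the log2 fold change divided by the square root of F. The study's filter, 10 CPM in more than 3 libraries, leaves Has1, Has3 and Hyal1 untested and was an alternative. The others were DESeq2 1.42.0, its size factors, voom in limma 3.58.1, filterByExpr, no filter, only the groups compared, a replicate block, length offsets (lowess, span 0.3), the broader rule, and each library left out. A crossed block was added after seeing the data.

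The genes and lists were chosen with earlier results of these data known. Named were the 8 genes, other pathway genes called in any comparison or with the 2 highest or 2 lowest log2 fold changes of their list for DMSO against vehicle (at least 50 counts in 2 libraries), and the 3 genes nearest in pattern to each called gene. A few genes that met this rule or belong to the marker lists are left out of the text. The 95% intervals come from the edgeR fit and include the spread between libraries, while the limit of 3 counts covers counting error only.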

Additional observations from a re-analysis of the deposited data

How the results depend on the processing

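For TGF-β1 with DMSO against vehicle, 5 of the 8 genes passed the broader rule, 2 were called with DESeq2 and 2 with its size factors, and 0 under the study's filter or with only the groups compared, beside 1 in the edgeR fit. Over all genes 2880 of 17936 passed the broader rule. With DESeq2 471 of 17936 were called higher and 512 lower, and with its size factors 419 and 470. Under the study's filter, which tested 5 of the 8, 485 of 9518 genes were called. With only the groups compared, 306 of 16900 were called higher and 364 lower. For BI6727 against DMSO, 0 of the 8 were called under any alternative, while the count over all genes was 15 with DESeq2, 47 with no filter, 13 with length offsets, 4 with voom, 4 with the crossed block and 0 under the study's filter, filterByExpr, the replicate block or only the groups compared. For BI6727 against vehicle, 5 of the 8 passed the broader rule, 1 was called with filterByExpr and 0 under the study's filter. Over all genes 3070 of 17936 passed the broader rule and 505 of 9518 were called under the study's filter. With filterByExpr, 366 of 14604 were called higher and 542 lower. The causes were not tested. Leaving out 1 library at a time gave 0 to 2 calls among the 8 and 305 to 1435 over all genes for DMSO against vehicle, 0 and 0 to 92 for BI6727 against DMSO, and 0 to 2 and 357 to 1227 for BI6727 against vehicle; the lone library of an arm was then assumed to vary like the others. Log2 fold changes turned in direction with length offsets for Cemip between BI6727 and DMSO (-0.030), and with a library left out for Has1 (fitted values of -4.62 to 4.38, which rest on libraries at 0 and are not bounds) and Has3 (-0.91 to 0.034) with DMSO against vehicle, Cemip (-0.38 to 0.64) and Tlr4 (-0.25 to 0.18) between BI6727 and DMSO, and Has2 (-0.23 to 0.35) between BI6727 and vehicle. None of these was past a threshold in the fit of all libraries. The call of Cemip was lost in 7 of 16 alternatives with DMSO and 6 of 16 with BI6727 against vehicle, and that of Hyal1 with BI6727 in 4 of 15. Deviations of same-numbered replicates had an r of -0.11 for vehicle and DMSO, 0.047 for vehicle and BI6727 and -0.26 for DMSO and BI6727. The length trend between the DMSO libraries enters the values with DMSO, so they cannot decide whether the numbers pair the libraries. With the replicate block, 411 genes were called higher and 493 lower for DMSO against vehicle, and 358 and 548 for BI6727 against vehicle. The calls among the 8 genes numbered 1, 0 and 2 as without it.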
